A study of Mus musculus with 8 samples.

Results

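The genes described here are 55 named genes of DNA replication and mitosis, read by symbol from the deposited expression table for sorted mouse hair follicle stem cells, in TPM, a measure of transcript abundance scaled for gene length and library size. Each of the 55 symbols matched a single entry among the table's 46517 genes. All 55 were among the 15434 genes tested, which reached 1 TPM in at least 2 of the 8 libraries. By function, 28 of them act in or around S phase (replication genes) and 27 act in G2 and M phase (mitotic genes). The comparison asked at which of these stages the transcripts of a resting stem cell differed when the transcription factors NFIB and NFIX were deleted.

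Back skin was taken from male mice at day 70 after birth, in the second telogen, which is a resting phase of the hair cycle, and the 8 libraries of bulk RNA sequencing hold 2 animals for each of 4 genotypes. Every sample was sorted as negative for DAPI and Sca-1 and positive for integrin alpha6 and CD34. WT animals (34 and 82) were floxed for both factors (NFIBfl/fl and NFIXfl/fl), with no Cre listed. NFIB-cKO animals (81 and 85) were NFIBfl/fl with Sox9-CreER. NFIX-cKO animals (32 and 88) were NFIXfl/fl and NFIBfl/+ with Sox9-CreER, so they also carried 1 floxed NFIB allele. NFIB/X-dKO animals (33 and 36) were NFIXfl/fl and NFIBfl/fl with Sox9-CreER. All groups were R26-YFPfl/fl, a reporter allele, and the knockout groups were also gated on YFP, so Cre, the YFP gate and the deletion cannot be told apart in a comparison with WT. Sox9-CreER is driven by a gene active in the follicle's Sox9-positive cells. The p-values below measure only the spread between these 2 animals a group.

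Adult hair follicle stem cells spend telogen largely in quiescence, outside the division cycle, and enter it when a new hair starts to grow. Genes of DNA replication are switched on first, largely by E2F factors after the retinoblastoma proteins are inactivated, while mitotic genes follow in G2, when B-MYB, the MuvB core and FOXM1 act through a promoter element called the cell cycle genes homology region (CHR). In quiescent cells the DREAM complex, which joins E2F4, a retinoblastoma-like protein and MuvB, holds both sets down.

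Promoter sequences are shown because most mitotic members ordered the libraries alike and the replication members ordered them otherwise. RefSeq promoter windows (GRCm38.p6, from 250 bases before to 50 bases after the start) were found for 46 members, in 52 windows, and not for Gins1, Gins2, Ccne2, Foxm1, Mcm4, Aurkb, Tpx2, Ccna2 and Kif20a. CHR letters (TTTGAA or TTCGAA, either strand) were present in 19 of 23 windows of mitotic members (82.6%), in 5 of 29 windows of replication members (17.2%), and in 19.2% of all 32851 windows. E2F letters (TTTCCCGC, TTTGGCGC, TTTCGCGC or TTTGCCGC, either strand) were present in 1 of 23 mitotic windows (4.35%), 9 of 29 replication windows (31.0%) and 2.26% of all windows. CCAAT boxes (CCAAT, either strand) were in 87.0%, 62.1% and 37.4% of these windows, respectively. A match is only the presence of the letters, and matches on both strands of the same bases were counted once per position. The stretches below run 5′ to 3′ on the gene's strand up to the base before the start, with CHR matches in capitals for the first 5 and E2F matches in capitals for the other 4. A match on the opposite strand appears as its reverse complement, as in Ube2c.
Cdk1 (chr10:69352913-69352993, - strand): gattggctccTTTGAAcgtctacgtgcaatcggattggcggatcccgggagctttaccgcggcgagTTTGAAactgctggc
Top2a (chr11:99024190-99024378, - strand): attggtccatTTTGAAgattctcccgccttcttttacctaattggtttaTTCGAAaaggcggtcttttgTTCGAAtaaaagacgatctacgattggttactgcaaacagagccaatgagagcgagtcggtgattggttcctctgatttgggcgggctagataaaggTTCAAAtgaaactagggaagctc
Mki67 (chr7:135716380-135716505, - strand): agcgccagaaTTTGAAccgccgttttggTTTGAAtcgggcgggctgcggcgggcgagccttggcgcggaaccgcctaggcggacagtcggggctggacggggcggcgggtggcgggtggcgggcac
Ube2c (chr2:164769869-164769928, + strand): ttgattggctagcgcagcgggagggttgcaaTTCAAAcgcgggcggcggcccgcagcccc
Cdc20 (chr4:118437344-118437403, - strand): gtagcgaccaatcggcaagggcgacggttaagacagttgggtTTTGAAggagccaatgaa
Mcm5 (chr8:75109346-75109508, + strand): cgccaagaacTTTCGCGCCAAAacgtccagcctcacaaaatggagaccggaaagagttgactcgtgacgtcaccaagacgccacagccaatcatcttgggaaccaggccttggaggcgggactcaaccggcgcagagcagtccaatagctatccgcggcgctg
Mcm6 (chr1:128359706-128359825, - strand): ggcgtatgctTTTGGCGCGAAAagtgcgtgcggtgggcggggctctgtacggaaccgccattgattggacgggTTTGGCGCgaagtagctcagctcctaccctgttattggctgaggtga
Mcm7 (chr5:138171884-138172058, - strand): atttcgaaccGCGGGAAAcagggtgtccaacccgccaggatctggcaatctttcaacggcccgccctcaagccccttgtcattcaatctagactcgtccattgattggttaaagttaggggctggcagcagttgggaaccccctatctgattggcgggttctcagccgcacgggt
Uhrf1 (chr17:56304118-56304312, + strand): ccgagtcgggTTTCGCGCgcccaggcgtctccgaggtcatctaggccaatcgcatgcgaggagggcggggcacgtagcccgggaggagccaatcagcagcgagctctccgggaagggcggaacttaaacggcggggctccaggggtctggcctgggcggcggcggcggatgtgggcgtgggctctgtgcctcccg
In Cdk1 the nearest CHR match began 15 bases before the start, and in Top2a, with 4 matches, 23 bases before it. In Mcm5 and Mcm6 an E2F match on each strand overlapped, so that the capitals form a run of 12 letters.

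**Figure D1:**
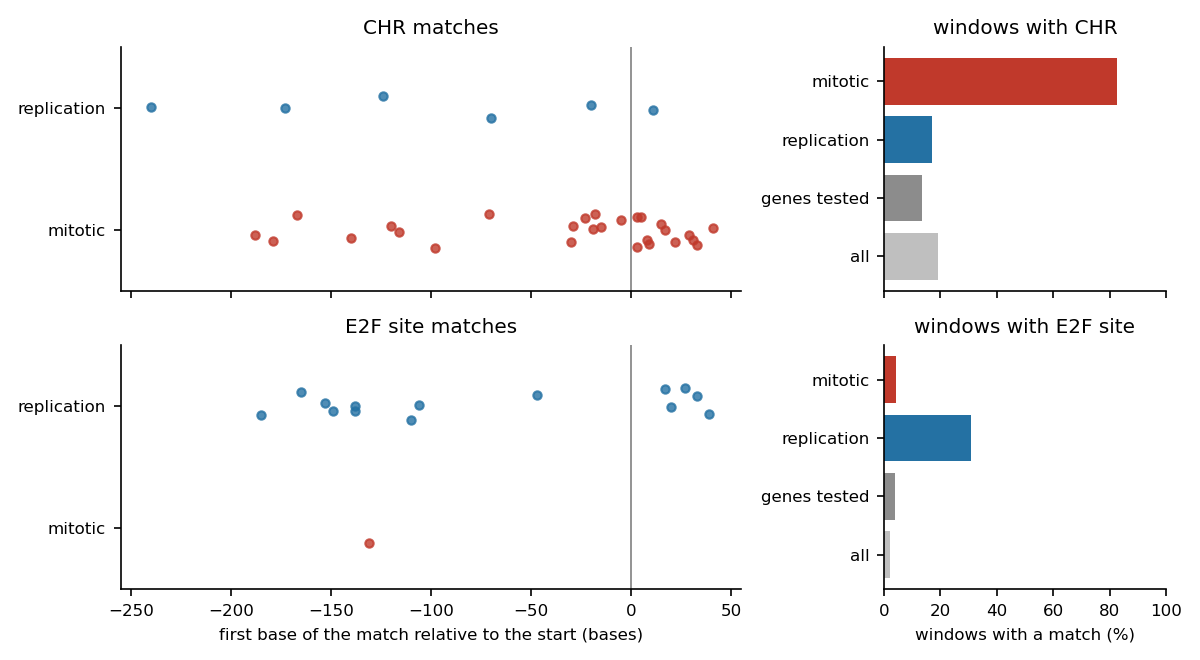
Motif matches in the members' promoter windows. Left, first base of each match relative to the start (bases) for mitotic and replication members. Right, percentage of windows with a match among members, genes tested and all windows. CHR letters were in 82.6% of mitotic and 17.2% of replication windows, and E2F letters in 4.35% and 31.0%.

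The sorted cells carried the markers of hair follicle stem cells in every library, with Krt15 at 7507 to 14487 TPM and Cd34 at 811 to 1144 TPM. The 12 such markers summed to 24500 to 35310 TPM, mostly Krt15 and Krt5 (11780 to 15703 TPM). Cd34 and Itga6 (integrin alpha6) were on this list and were also sort markers, so their presence followed from the sort. By limma, 4 of these 12 fell in NFIB/X-dKO against WT (Lhx2, Lgr5, Foxc1 and Hopx) and 1 in NFIB-cKO against WT (Hopx). Of all 15434 genes tested, 195 and 66 were called lower in these 2 comparisons. Lgr5 was 121 and 129 TPM in WT, 75.7 and 49.2 TPM in NFIB-cKO and 38.6 and 44.8 TPM in NFIB/X-dKO, and the part of these shifts in the members' differences was not tested. The 7 immune cell markers summed to 3.64 to 12.1 TPM, highest in NFIX-cKO 32, with Ptprc (CD45) at most 0.61 TPM, and the 5 endothelial markers summed to at most 2.89 TPM. The 6 markers of differentiated epidermis summed to 1722 to 4194 TPM, so this fraction was not free of such transcripts. Nfib TPM was 229.6 and 209 in WT, 293 and 233 in NFIB-cKO, 199.97 and 148 in NFIX-cKO, and 377 and 389 in NFIB/X-dKO, and Nfix TPM was 158 and 157 in WT, 154 and 147 in NFIB-cKO, 138 and 123 in NFIX-cKO, and 125 and 148 in NFIB/X-dKO. These are values over the whole gene, which do not separate the deleted exons and so do not check the deletion. Groups are named as they were labelled. The animals fall into numbers 32 to 36 and 81 to 88, and both NFIB-cKO animals are of the higher numbers and both NFIB/X-dKO animals of the lower. The labels do not say what the numbers stand for. Total expected counts were 57173266 to 66854625 in the 5 libraries with gene-level files, and for both WT libraries and NFIB-cKO 81 the depth is unknown. In those 5 libraries the members' expected counts ran from 107 to 15404.

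By group mean, mitotic transcripts were lowest in WT and highest in NFIB-cKO, while the libraries of WT and NFIB/X-dKO overlapped. Summed over the 27 mitotic members, TPM was 73.7 and 128 in WT, 289 and 688 in NFIB-cKO, 201 and 262 in NFIX-cKO, and 111 and 179 in NFIB/X-dKO. NFIB-cKO 85 held the most and WT 34 the least, and the NFIX-cKO libraries lay between those of WT and NFIB-cKO. The group means were 101 ± 38.6 TPM in WT, 488 ± 282 TPM in NFIB-cKO, 232 ± 43.6 TPM in NFIX-cKO and 145 ± 47.7 TPM in NFIB/X-dKO (SD, n = 2), or 4.84, 2.29 and 1.44 times WT. Summed over the 28 replication members, TPM was 509 and 499 in WT, 562 and 649 in NFIB-cKO, 538 and 534 in NFIX-cKO, and 619 and 646 in NFIB/X-dKO. These group means were 1.2, 1.06 and 1.25 times WT, so the replication sum spanned a narrower range, with the highest mean in NFIB/X-dKO. NFIB-cKO and NFIB/X-dKO overlapped, and NFIB-cKO 85 held the largest sum. Between NFIB/X-dKO and NFIB-cKO, the median difference in log2(TPM + 1) was 0.14 for replication members and 0.15 for all genes. After scaling by median of ratios, which centres all genes, the replication median was 0.0105. The order of NFIB/X-dKO and NFIB-cKO in the replication means was therefore not separable from the shift over all genes. Pcna alone made up 168 to 263 TPM of the replication sum. In bulk RNA, fewer cells in a stage of the cycle and less RNA per cell cannot be told apart.

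**Figure D2:**
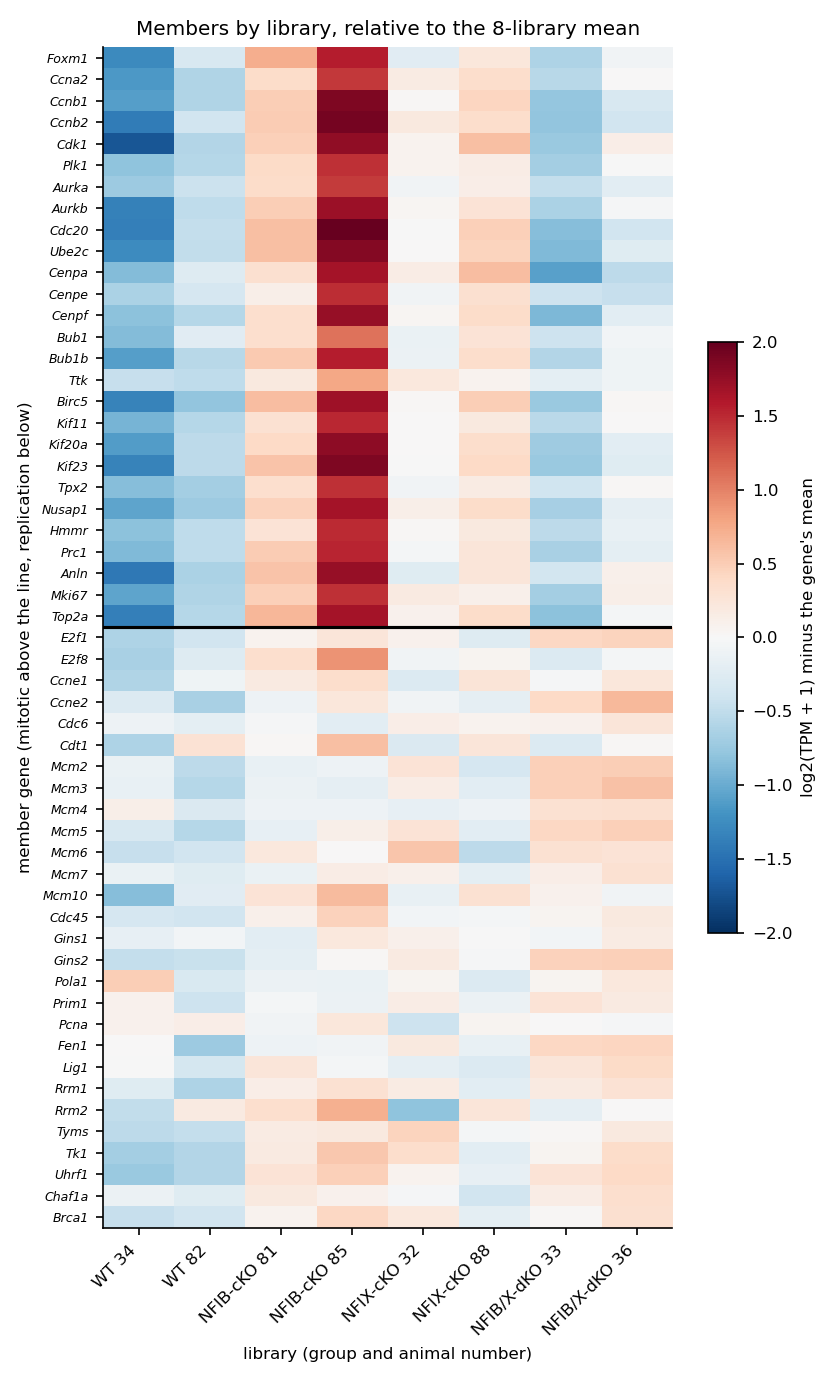
Heat map of the 55 members (rows) in the 8 libraries (columns), as log2(TPM + 1) minus the gene's mean over all libraries, with colours ending at 2 in either direction. Mitotic members are above the line and replication members below. NFIB-cKO 85 was highest for 27 of 27 mitotic members.

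The first mitotic group holds the 10 cyclins, kinases and proteins of their turnover. Cdk1, the kinase that drives entry into mitosis, had TPM of 5.11 and 12.2 in WT, 26.7 and 66.9 in NFIB-cKO, 19.9 and 29.2 in NFIX-cKO, and 10.9 and 20.9 in NFIB/X-dKO. Ube2c, the ubiquitin-conjugating enzyme of the anaphase-promoting complex, had TPM of 4.88 and 8.93 in WT, 20.1 and 48.8 in NFIB-cKO, 13.00 and 18.1 in NFIX-cKO, and 6.61 and 10.8 in NFIB/X-dKO. For both genes the NFIB-cKO libraries did not overlap WT, while NFIB/X-dKO 33 lay between the WT libraries. For Cdk1, NFIX-cKO 88 was above NFIB-cKO 81, so those 2 groups overlapped. The group means of Cdk1 and Ube2c ran NFIB-cKO above NFIX-cKO above WT. The same order of means held for Cdc20, the activator of that complex, and for Foxm1, the transcription factor of G2 genes. Their group means were 6.0 ± 2.93 TPM in WT, 34.2 ± 22.6 TPM in NFIB-cKO, 14.1 ± 3.51 TPM in NFIX-cKO and 7.39 ± 1.89 TPM in NFIB/X-dKO (SD, n = 2) for Cdc20 and 2.86 ± 1.74 TPM in WT, 13.8 ± 5.88 TPM in NFIB-cKO, 5.47 ± 1.44 TPM in NFIX-cKO and 4.11 ± 1.34 TPM in NFIB/X-dKO (SD, n = 2) for Foxm1.

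The kinetochore and the spindle checkpoint are served by 7 mitotic members. Cenpa, the histone that marks centromeres, had TPM of 6.37 and 10.3 in WT, 15.8 and 41.9 in NFIB-cKO, 13.9 and 19.8 in NFIX-cKO, and 5.34 and 8.39 in NFIB/X-dKO. It was the mitotic member whose group mean was lowest in NFIB/X-dKO and not in WT, and NFIB/X-dKO 33 lay below both WT libraries. Birc5 (survivin), a subunit of the chromosomal passenger complex, had TPM of 3.04 and 4.85 in WT, 14.6 and 31.9 in NFIB-cKO, 9.3 and 13.3 in NFIX-cKO, and 5.1 and 9.36 in NFIB/X-dKO. Every knockout library of Birc5 was above both WT libraries. Ttk, the checkpoint kinase MPS1, spanned the narrowest range of the mitotic members, 1.43 to 4.89 TPM.

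A further 8 members build the spindle, its midzone and the cleavage furrow. Prc1, which bundles microtubules of the midzone, had TPM of 7.63 and 10.2 in WT, 21.5 and 44.5 in NFIB-cKO, 14.4 and 17.8 in NFIX-cKO, and 9.07 and 12.8 in NFIB/X-dKO. Anln (anillin), the scaffold of the contractile ring, had TPM of 3.04 and 6.0 in WT, 15.1 and 35.5 in NFIB-cKO, 8.19 and 11.9 in NFIX-cKO, and 7.43 and 10.7 in NFIB/X-dKO. For Anln every NFIB/X-dKO library was above WT, whereas for Prc1 NFIB/X-dKO 33 lay between the WT libraries. The kinesin Kif11, which pushes spindle poles apart, ran from 1.29 TPM in WT 34 to 11.4 TPM in NFIB-cKO 85.

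The remaining mitotic members shape chromosomes. Top2a, the topoisomerase that untangles sister chromatids, had TPM of 8.6 and 15.7 in WT, 38.5 and 77.5 in NFIB-cKO, 25.4 and 31.00 in NFIX-cKO, and 13.1 and 23.2 in NFIB/X-dKO. Mki67, the proliferation marker that coats mitotic chromosomes, had TPM of 2.26 and 3.45 in WT, 8.48 and 17.6 in NFIB-cKO, 6.71 and 6.29 in NFIX-cKO, and 3.25 and 6.32 in NFIB/X-dKO. In both genes each NFIB-cKO library was above the other 6 libraries and NFIB/X-dKO 33 was below WT 82.

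Over the 27 mitotic members, NFIB-cKO 85 was the highest library for 27 (11.5% of all genes tested had it highest) and WT 34 the lowest for 24 (7.72%). Both NFIB-cKO libraries were above the other 6 for 22 (8.40% of all genes). For 22 members, both NFIX-cKO libraries lay above both WT and below both NFIB-cKO libraries, an order shown by 3.12% of all genes. NFIB/X-dKO 36 was above both WT libraries for 25 members but NFIB/X-dKO 33 for 7. Both NFIB/X-dKO libraries were above both WT for 7, against 38.4% of all genes. Animals of a group also differed, and in the same direction for most mitotic members. NFIB-cKO 85 was higher than NFIB-cKO 81 for 27 of 27, with a median ratio of 2.42. WT 82 was higher than WT 34 for 26 (median ratio 1.61), NFIX-cKO 88 than NFIX-cKO 32 for 25 (1.33) and NFIB/X-dKO 36 than NFIB/X-dKO 33 for 26 (1.58). Over all genes tested, the median deviation from the 8-library mean was lower in the higher-numbered animal of each pair. It was 0.09 and -0.15 in WT 34 and 82, and 0.01 and -0.06 in NFIB-cKO 81 and 85. In NFIX-cKO 32 and 88 it was 0.03 and -0.17, and in NFIB/X-dKO 33 and 36 0.14 and 0.12. The pooled SD between animals of a group in the median deviation of a library was 0.52 for mitotic and 0.12 for replication members, in log2(TPM + 1).

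**Figure D3:**
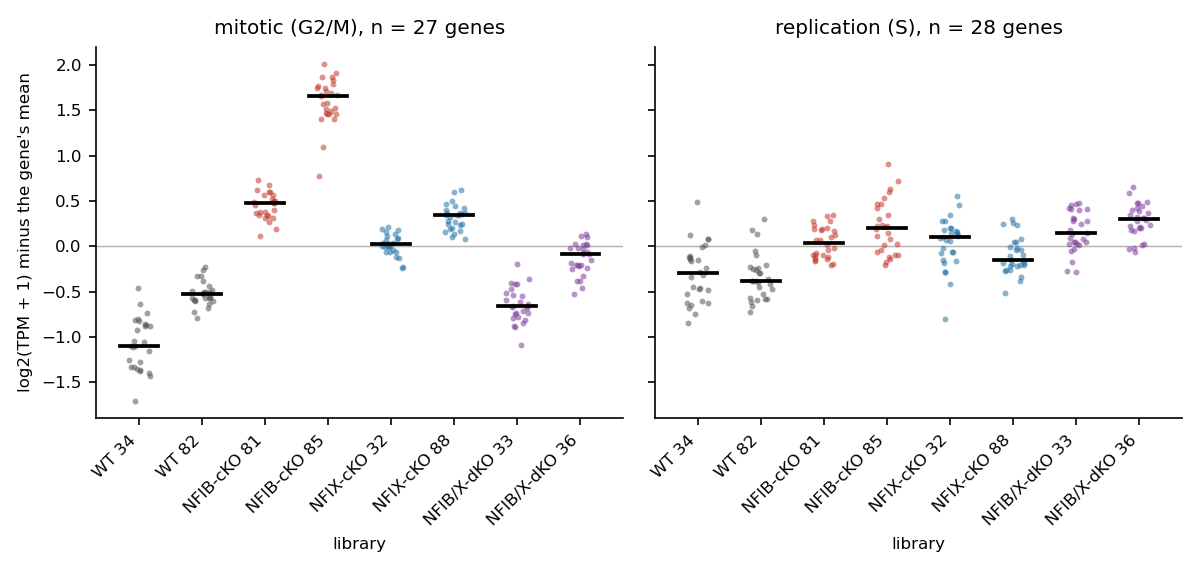
Each point is a member in a library, as log2(TPM + 1) minus its mean over the 8 libraries, and bars are medians. Mitotic medians ran from -1.10 in WT 34 to 1.66 in NFIB-cKO 85, and replication medians from -0.38 in WT 82 to 0.30 in NFIB/X-dKO 36.

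Replication members were taken in the order of the process, starting with 4 genes of entry into S phase. E2f1, the activating E2F factor, had TPM of 3.24 and 4.02 in WT, 5.85 and 6.71 in NFIB-cKO, 5.96 and 4.43 in NFIX-cKO, and 7.74 and 7.86 in NFIB/X-dKO. Ccne2 (cyclin E2), a partner of CDK2 at the start of S phase, had TPM of 2.8 and 1.93 in WT, 3.3 and 4.4 in NFIB-cKO, 3.4 and 3.05 in NFIX-cKO, and 5.1 and 6.23 in NFIB/X-dKO. Both genes were highest in both NFIB/X-dKO libraries, with WT below all knockout libraries. E2f8, a repressive E2F factor, instead had both NFIB-cKO libraries highest, at 1.92 and 3.31 TPM against 0.47 and 0.92 TPM in WT.

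Origins are licensed by 8 members, among them the MCM helicase subunits. Mcm7 had TPM of 24.8 and 22.9 in WT, 24.8 and 30.2 in NFIB-cKO, 29.5 and 23.7 in NFIX-cKO, and 30.1 and 34.1 in NFIB/X-dKO. Mcm6, another subunit of that ring, had TPM of 18.2 and 19.2 in WT, 29.3 and 25.6 in NFIB-cKO, 37.7 and 17.4 in NFIX-cKO, and 31.6 and 30.9 in NFIB/X-dKO. For Mcm6 the NFIX-cKO libraries were the highest and the lowest of the 8, and for Mcm7 both NFIB/X-dKO libraries were above WT. For Mcm2, Mcm3, Mcm4 and Mcm5, further subunits, each NFIB/X-dKO library was above the other 6, as in Mcm3 at 18.5 and 20.04 TPM against 8.43 to 14.6 TPM.

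The helicase is activated by 4 members. Gins2, a subunit of the GINS part of the active helicase, had TPM of 17.8 and 18.03 in WT, 21.7 and 25.4 in NFIB-cKO, 28.5 and 24.7 in NFIX-cKO, and 34.8 and 35.3 in NFIB/X-dKO. Its WT libraries were the lowest and its NFIB/X-dKO libraries the highest, with no overlap between WT and any knockout group. Cdc45, which joins GINS and MCM, had TPM of 4.42 and 4.25 in WT, 6.33 and 8.47 in NFIB-cKO, 5.57 and 5.67 in NFIX-cKO, and 6.1 and 6.87 in NFIB/X-dKO. All knockout libraries of Cdc45 were above WT, and NFIB-cKO 85 was the highest.

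Synthesis at the fork is represented by 5 members. Pcna, the sliding clamp, had TPM of 237 and 246 in WT, 212 and 263 in NFIB-cKO, 168 and 232 in NFIX-cKO, and 226 and 222 in NFIB/X-dKO. WT lay inside the NFIB-cKO range for Pcna and above both NFIX-cKO and both NFIB/X-dKO libraries. Prim1, the primase subunit, had TPM of 24.8 and 17.2 in WT, 22.7 and 21.5 in NFIB-cKO, 25.98 and 21.6 in NFIX-cKO, and 28.6 and 26.6 in NFIB/X-dKO. NFIB/X-dKO was highest for Prim1, while NFIB-cKO and NFIX-cKO overlapped WT.

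Nucleotide supply and chromatin at the fork complete the set. Tyms (thymidylate synthase) had TPM of 18.9 and 19.6 in WT, 31.1 and 31.7 in NFIB-cKO, 38.2 and 26.9 in NFIX-cKO, and 28.2 and 31.9 in NFIB/X-dKO. Tk1 (thymidine kinase) had TPM of 13.1 and 14.1 in WT, 24.6 and 31.8 in NFIB-cKO, 27.7 and 18.5 in NFIX-cKO, and 22.4 and 28.1 in NFIB/X-dKO. In both genes every knockout library was above WT, and the 3 knockout groups overlapped each other.

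Uhrf1, which recruits the maintenance DNA methyltransferase to newly copied DNA, had TPM of 8.74 and 9.85 in WT, 18.8 and 21.6 in NFIB-cKO, 16.1 and 13.6 in NFIX-cKO, and 18.7 and 20.5 in NFIB/X-dKO. WT was lowest for Uhrf1, NFIX-cKO intermediate, and NFIB-cKO and NFIB/X-dKO overlapped each other. Chaf1a, a subunit of the chromatin assembly factor that loads histones behind the fork, had TPM of 5.17 and 4.66 in WT, 6.69 and 6.13 in NFIB-cKO, 5.61 and 4.16 in NFIX-cKO, and 6.46 and 7.51 in NFIB/X-dKO. Its NFIX-cKO libraries overlapped WT, while NFIB-cKO and NFIB/X-dKO lay above it.

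By group mean, NFIB-cKO was the highest group for 27 of 27 mitotic members. Of the 28 replication members, 16 were highest in NFIB/X-dKO, 9 in NFIB-cKO, 2 in WT and 1 in NFIX-cKO. Both NFIB/X-dKO libraries were above the other 6 for 10 of 28 replication members (E2f1, Ccne2, Mcm2, Mcm3, Mcm4, Mcm5, Gins2, Prim1, Fen1 and Lig1) and for 0 of 27 mitotic members, against 20.8% of all genes. WT was below all knockout libraries for 11 replication and 7 mitotic members, against 4.81% of all genes.

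**Figure D4:**
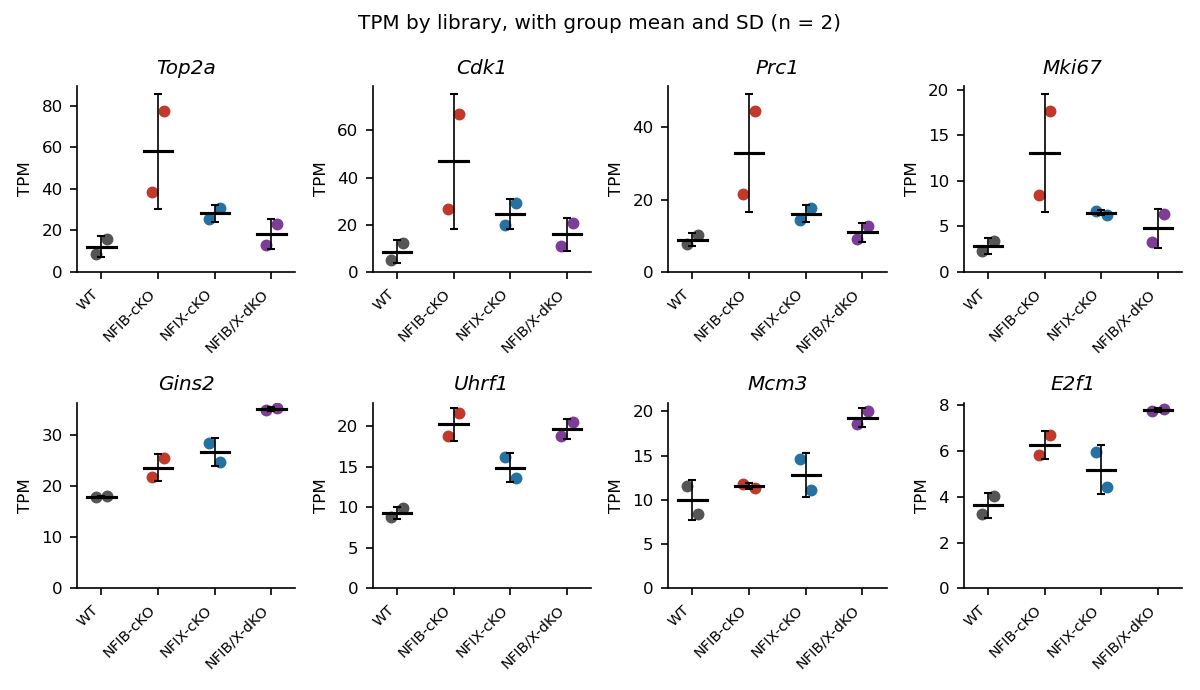
TPM of 4 mitotic (upper) and 4 replication (lower) members. Points are libraries, lines group means and bars SD (n = 2). Mitotic members peak in NFIB-cKO, with its 2 libraries far apart, and Gins2, Mcm3 and E2f1 are highest in NFIB/X-dKO.

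The first comparison asked what deletion of NFIB alone did. No member passed limma's test of NFIB-cKO against WT at an adjusted p under 0.05 (0 of 55, with 0.719% of all 15434 genes called), so the following are values and not calls. At an unadjusted p under 0.05, 27 of 27 mitotic and 10 of 28 replication members were higher and none lower, against 7.96% of all genes higher. The median difference in log2(TPM + 1) was 1.87 for mitotic members, 0.45 for replication members and 0.0048 for all genes. Both NFIB-cKO libraries were above both WT libraries for 27 mitotic and 16 replication members, against 21.7% of all genes. Among mitotic roles, the median was 2.03 for cyclins and kinases, 1.56 for the kinetochore, 1.81 for the spindle and 1.97 for chromosome structure. Replication roles were lower, from 0.09 for fork synthesis and 0.21 for origin licensing to 0.68 for nucleotide supply.

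The largest differences were those of Cdk1 at 2.27 ± 0.54 (SE), Cdc20 at 2.23 ± 0.5 and Birc5 at 2.22 ± 0.43. Their adjusted p-values by limma were 0.13, 0.11 and 0.085. Uhrf1 came nearest to the threshold, at 1.04 ± 0.16 with an adjusted p of 0.051 by limma. The mitotic median was 1.32 without NFIB-cKO 85 and 2.40 without NFIB-cKO 81. Within animals 81 to 88, where WT 82 was the only WT library, it was 1.59. Markers of fibroblasts (6 genes) summed to 86.8 and 58.9 TPM in NFIB-cKO 81 and 85 and to 24.5 and 25.4 TPM in WT, and those of melanocytes (6 genes) to 33.1 and 31.4 against 10.6 and 23.1 TPM. The fibroblast sum was almost wholly Col1a1, at 77.3 and 55.1 TPM in NFIB-cKO against 12.2 and 16.6 TPM in WT, and Col1a1 passed limma's test (adjusted p = 0.034). Col1a2 stood at 9.22 and 3.26 against 11.8 and 8.01 TPM, and Col3a1, Dcn, Lum and Pdgfra reached at most 0.45 TPM in any library. Both sums were higher in NFIB-cKO 81, whose mitotic sum was the smaller, and their part in the differences from WT was not tested.

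The second comparison concerned NFIX-cKO, whose animals also carried the floxed NFIB allele. No member passed limma's test against WT (0 of 55, with 0.149% of all genes called), and 14 were higher at an unadjusted p under 0.05, of which 10 were mitotic and 4 replication members, against 2.18% of all genes. The median difference in log2(TPM + 1) was 0.98 for mitotic members, 0.33 for replication members and -0.05 for all genes. Both NFIX-cKO libraries were above both WT libraries for 27 of 27 mitotic and 14 of 28 replication members, against 9.64% of all genes. Cdk1 differed by 1.48 ± 0.54 (SE) and Birc5 by 1.32 ± 0.43, with adjusted p-values of 0.67 and 0.60 by limma. Tyms had the smallest adjusted p, 0.46, at 0.71 ± 0.18. Within animals 32 to 36 (NFIX-cKO 32 against WT 34 only) the mitotic median was 1.12. It was 0.87 within animals 81 to 88 (NFIX-cKO 88 against WT 82 only). In the fit of all libraries but 1, this median was 0.68 without WT 34 and 1.28 without WT 82.

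The third comparison concerned loss of both factors, with the same WT libraries as the first and second. In NFIB/X-dKO 2 replication members rose against WT by limma (2 of 55, with 1.62% of all genes called higher). Gins2 rose by 0.93 ± 0.15 (SE) in log2(TPM + 1), with an adjusted p of 0.025 by limma. Uhrf1 rose by 1.0 ± 0.16, with an adjusted p of 0.028 by limma. Read against that background, 2 of 55 is too few to set the members apart. Both calls were lost when either WT, NFIB-cKO or NFIB/X-dKO library was left out, with adjusted p of 0.051 to 0.24 for Gins2 and 0.062 to 0.28 for Uhrf1 by limma, and when the fit held the compared groups alone (0.054 and 0.064). After median-of-ratios scaling Uhrf1 missed the threshold (limma, adjusted p = 0.061).

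At an unadjusted p under 0.05, 15 of 28 replication members and 0 of 27 mitotic members were higher, against 10.9% of all genes. E2f1 differed by 0.93 ± 0.2, Ccne2 by 0.99 ± 0.23, Mcm3 by 0.9 ± 0.2 and Mcm5 by 0.89 ± 0.21, all short of the adjusted threshold. The median difference was 0.52 for replication members and 0.36 for mitotic members, with 0.16 for all genes. Scaling by median of ratios, which centres all genes, left 0.38 for replication and 0.23 for mitotic members. A pseudocount of 0.1 gave 0.64 for replication and 0.58 for mitotic members. The number series as a term gave 0.49 for replication and 0.61 for mitotic members, so the order of the 2 medians reversed. Both NFIB/X-dKO libraries were above both WT libraries for 22 of 28 replication members and 7 of 27 mitotic members, against 38.4% of all genes. The mitotic share was below that background, and WT 82 exceeded NFIB/X-dKO 33 for 20 of 27. Within animals 32 to 36, where WT 34 was the only WT library, the mitotic median was 0.67 and the replication median 0.50. The mitotic median was 0.15 without WT 34 and 0.67 without NFIB/X-dKO 33. Markers of differentiated epidermis summed to 3628 and 3536 TPM in NFIB/X-dKO 33 and 36 and to 2657 and 2095 TPM in WT. This sum was highest in NFIX-cKO 32, at 4194 TPM, and every animal of numbers 32 to 36 was above every animal of 81 to 88. Of its 6 genes, Sbsn was lower in NFIB/X-dKO than in WT, Lor lay inside the WT range and the others were higher. Markers of fibroblasts summed to 55.7 and 68.2 against 24.5 and 25.4 TPM. Of the fibroblast sum in NFIB/X-dKO, Col1a1 made up 53.3 and 65.1 TPM, while Col1a2 was at 2.17 and 2.81 TPM, below WT, and the other 4 were near 0 as above. Their part in these differences was not tested.

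**Figure D5:**
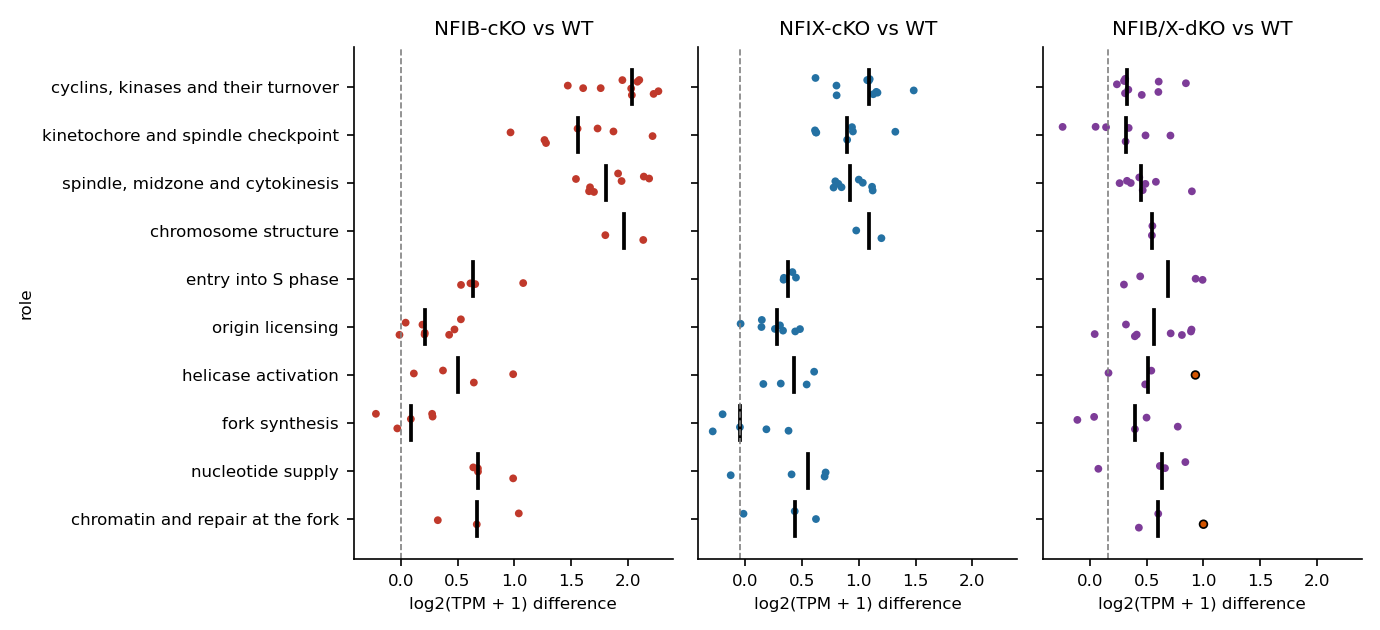
Difference from WT in log2(TPM + 1) for each member (points) by role (rows) in the 3 knockout groups, which share the WT libraries. Black bars are role medians, dashed lines the median of all genes, and outlined orange points passed the limma test (Gins2 and Uhrf1 in NFIB/X-dKO).

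NFIB/X-dKO was next set against NFIB-cKO, to see how the added loss of NFIX related to the members. No member passed limma's test (0 of 55, with 0.227% of all genes called). At an unadjusted p under 0.05, 27 of 27 mitotic members were lower, against 7.78% of all genes, with 1 replication member lower and 4 higher (9.41% of all genes higher). The median difference was -1.43 for mitotic members and 0.14 for replication members, with 0.15 for all genes. Both NFIB/X-dKO libraries were below both NFIB-cKO libraries for 27 mitotic members (23.1% of all genes) and 3 replication members. Cdc20 had the largest gap, -1.92 ± 0.5, and Prc1 the smallest adjusted p, 0.23 by limma. In the other direction, Mcm3 differed by 0.69 ± 0.2 and Gins2 by 0.56 ± 0.15. The 2 groups hold animals of different number series, so series and genotype cannot be told apart here. With series as a term the mitotic median was -1.0 and 1 member had an unadjusted p under 0.05, and without NFIB-cKO 85 the median was -0.86.

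Against NFIX-cKO, which shares number series with NFIB/X-dKO through animal 32, the 4 libraries had counts. By edgeR's quasi-likelihood test on rounded expected counts, 0 of 55 members passed (0.322% of 18349 genes called). At an unadjusted p under 0.05, 10 mitotic members were lower (8.03% of all genes) and 2 replication members higher (6.69%). DESeq2 called 4 members, in a fit that called 830 genes, and limma on TPM of all 8 libraries called 0 (0.784% of all genes) with 7 at an unadjusted p under 0.05 (14.5%). The median log2 fold change by counts was -0.83 for mitotic and 0.01 for replication members, with -0.0042 for all genes. Both NFIB/X-dKO libraries were below both NFIX-cKO libraries in TPM for 18 of 27 mitotic members (11.5% of all genes). Cenpa had the largest difference, -1.5 ± 0.33 with an adjusted p of 0.21 by edgeR, and Mcm3 stood at 0.42 ± 0.12. Leaving out a library leaves 1 in its group, which is then assumed to vary like the other group. In such fits the mitotic median by counts ran from -1.32 without NFIB/X-dKO 36 to -0.54 without NFIB/X-dKO 33.

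NFIB-cKO and NFIX-cKO were also compared directly. No member passed limma's test (0 of 55, with 0.123% of all genes called), and 4 mitotic members and 1 replication member were higher in NFIB-cKO at an unadjusted p under 0.05, against 8.70% of all genes. The median difference was 0.85 for mitotic and 0.21 for replication members, with 0.06 for all genes. Both NFIB-cKO libraries were above both NFIX-cKO libraries for 22 of 27 mitotic and 6 of 28 replication members, against 28.2% of all genes. The mitotic median was 0.27 without NFIB-cKO 85 and 1.43 without NFIB-cKO 81.

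The 4 NFIB-deleted libraries (NFIB-cKO and NFIB/X-dKO) were set against the 4 of WT and NFIX-cKO, named NFIB-retaining. The NFIX-cKO animals carried 1 floxed NFIB allele, so not all 4 held NFIB at full dosage. By limma, 1 member rose (1 of 55, with 1.48% of all genes called higher). That member was Uhrf1, which rose by 0.71 ± 0.12 (SE) with an adjusted p of 0.03 by limma. Its 4 NFIB-deleted libraries were all above the other 4, an order shown by 1056 of the 15434 genes tested. Among members, 3 of 28 replication and 0 of 27 mitotic genes had this order. At an unadjusted p under 0.05, 9 mitotic and 12 replication members were higher, against 11.3% of all genes. The median difference was 0.64 for mitotic and 0.39 for replication members, with 0.10 for all genes. This mitotic median pools differences of opposite sign. NFIB-cKO exceeded WT by a median of 1.87 (27 of 27 members higher), whereas NFIB/X-dKO stood at -0.53 relative to NFIX-cKO (27 of 27 lower). It therefore does not describe a rise shared by both NFIB-deleted groups. The replication medians of the same pairs were 0.45 and 0.25. The call for Uhrf1 was lost without WT 34, NFIB-cKO 81, NFIB-cKO 85, NFIX-cKO 88, NFIB/X-dKO 33 or NFIB/X-dKO 36, with adjusted p of 0.062 to 0.195 by limma, and after median-of-ratios scaling (limma, adjusted p = 0.066).

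Whether loss of NFIB went with a different change when NFIX was also deleted was tested as an interaction, a contrast added after the data were seen. No member passed limma's test (0 of 55, with 0.117% of all genes called), while 27 of 27 mitotic and 5 replication members were lower at an unadjusted p under 0.05, against 3.27% of all genes. For 18 of 27 mitotic and 0 of 28 replication members, every NFIB-cKO library was above WT and every NFIB/X-dKO library below NFIX-cKO, against 2.53% of all genes. The median interaction was -2.33 for mitotic and -0.06 for replication members, with 0.18 for all genes. The NFIX-cKO animals carried a floxed NFIB allele, so this contrast does not start from NFIB at full dosage. Both NFIB-cKO animals are also of numbers 81 to 88 and both NFIB/X-dKO animals of numbers 32 to 36. Within WT and NFIX-cKO the animal of the higher number had more of 26 and 25 of the 27 mitotic transcripts. Within NFIB-cKO and NFIB/X-dKO, whose 2 animals share a series, it had more of 27 and 26. With series as a term the mitotic median was -1.98, with 0 members called by limma and 29 at an unadjusted p under 0.05, against 32 without the term.

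Other genes of the pathway, from lists that do not hold the members, were counted in the same fits. Of 44 tested further mitotic genes, 0 passed limma's test in NFIB-cKO against WT, 41 were higher at an unadjusted p under 0.05, and the median difference was 1.34, beside 7.96% of all genes higher. Those with the smallest p were Spc25 and Nuf2, kinetochore subunits, at 1.81 ± 0.31 and 1.99 ± 0.36 (SE), and Dlgap5, a spindle protein, at 1.14 ± 0.20. In NFIB/X-dKO against WT 0 passed, 6 were higher at an unadjusted p under 0.05, a share near the 10.9% of all genes, and the median was 0.42. Dlgap5 rose in NFIB-deleted against NFIB-retaining libraries by 0.82, with an adjusted p of 0.036 by limma (1 of 44, with 1.48% of all genes called higher). That call was lost with no filter (limma, adjusted p = 0.086), after median-of-ratios scaling (0.125), and without any 1 library other than WT 82 (0.053 to 0.199).

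Of 45 tested further replication genes, 0 passed in NFIB-cKO against WT by limma and 9 were higher at an unadjusted p under 0.05 (7.96% of all genes), with a median of 0.17. In NFIB/X-dKO against WT, Gmnn (geminin), the inhibitor of the licensing factor Cdt1, rose by 1.15 ± 0.19 (SE) with an adjusted p of 0.031 by limma. Gmnn was 1 of 45 called higher, with 1.62% of all genes called higher. In the same comparison 12 had an unadjusted p under 0.05 with a higher value (10.9% of all genes) and 1 with a lower, and the median was 0.34. The call for Gmnn was lost in 8 of 16 alternatives, which were no filter (limma, adjusted p = 0.069), the compared groups alone (0.066), animals 32 to 36 alone (0.053), and leaving out WT 82 (0.114), NFIB-cKO 81 or 85 (0.053 and 0.055) or NFIB/X-dKO 33 or 36 (0.198 and 0.29). Cdt1 itself, a member, was 4.84 and 10.1 in WT, 8.1 and 12.7 in NFIB-cKO, 6.37 and 9.65 in NFIX-cKO, and 6.47 and 8.15 in NFIB/X-dKO TPM, with NFIB/X-dKO inside the WT range. Of 21 regulators of the RB, DREAM and E2F complexes, 0 passed limma's test in either comparison, with 3 higher at an unadjusted p under 0.05 in each, close to the shares of all genes (7.96% and 10.9%). The 3 in NFIB-cKO were Fzr1, E2f7 and Lin37 at 0.51 ± 0.15, 0.65 ± 0.22 and 0.36 ± 0.14 (SE), and the 3 in NFIB/X-dKO were Tfdp1, Lin9 and Rb1 at 0.44 ± 0.15, 0.76 ± 0.26 and 0.49 ± 0.20 (SE).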

How the data were processed

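RNA of sorted hair follicle stem cells was sequenced in 8 libraries, 2 animals for each of 4 genotypes. The deposited TPM values and expected counts per gene were made by the authors with RSEM 1.2.30 and Bowtie2 2.2.9 on mm10 (GRCm38), per the submitters' processing notes; which gene annotation they used is not given in the sources used here. Across all 8 libraries, the TPM table of 46517 genes (with 92 spike-in entries left out) was used, and gene-level tables with expected counts were used for 5. TPM of the 2 kinds of file agreed exactly.

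The members and lists were chosen with earlier results of these data known. Members were grouped into 10 roles. Values of every library are given for the 2 members of each role with the highest mean TPM and for members past a test, and of each further list for the 3 genes with the smallest p in NFIB-cKO or NFIB/X-dKO against WT. limma (version 3.58.1, in R 4.3.3) fitted log2(TPM + 1) of all 8 libraries at once, its variance allowed to follow the mean level, over 15434 genes with at least 1 TPM in at least 2 libraries, with 4 residual and 3.1 prior degrees of freedom and Benjamini-Hochberg adjustment (threshold 0.05). A fold on this scale understates changes of low genes. NFIB/X-dKO and NFIX-cKO were also compared with edgeR 4.0.16 (quasi-likelihood) on expected counts rounded to whole numbers, with DESeq2 1.42.0 as an alternative. The scripts were tested on simulated data. Alternatives changed the pseudocount (0.1), filter, scaling, variance trend, libraries in the fit and the animal number series. Motifs were searched in RefSeq promoter windows of GRCm38.p6.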

Additional observations from a re-analysis of the deposited data

Results flagged for a closer look

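For 18 of 27 mitotic members, among them Ccna2, every NFIB-cKO library was above every WT library while every NFIB/X-dKO library was below every NFIX-cKO library. The same held for 0 of 28 replication members and for 391 of the 15434 genes tested (2.53%). This order over libraries was not tested as such. The interaction for each member, tested with limma, called 0 of 55, with 27 of 27 mitotic members at an unadjusted p under 0.05. Both NFIB-cKO animals are of the number series 81 to 88 and both NFIB/X-dKO animals of 32 to 36, so series and genotype run together in this order. Within WT and NFIX-cKO the animal of the higher number had more of 26 and 25 of the 27 mitotic transcripts. Within NFIB-cKO and NFIB/X-dKO, whose 2 animals share a series, it had more of 27 and 26. With series as a term, 0 members were called and 29 had an unadjusted p under 0.05, with a mitotic median of -1.98.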

How the results depend on the processing

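No paired analysis was possible because no replicate number in the labels is shared between groups. Counts of members called by limma were as follows. In NFIB-cKO against WT 0 were called, and 1 with the stricter filter. With the number series as a term 2 were called, in a fit that called 200 genes against 111 without it. In NFIB/X-dKO against WT 2 were called, 1 with no filter, 0 with the compared groups alone, 5 within animals 32 to 36, and 0 to 2 when a library was left out. In NFIB/X-dKO against NFIB-cKO 0 were called and 6 with the compared groups alone, a fit that called 3086 genes. In NFIB-deleted against NFIB-retaining libraries 1 was called, and 0 with no filter or after median-of-ratios scaling. With series as a term 7 were called, in a fit that called 1214 genes against 382 without it. By counts, DESeq2 called 4 where edgeR called 0, with 0 to 30 when a library was left out. Replication medians after median-of-ratios scaling were 0.38 for NFIB/X-dKO against WT, 0.0105 against NFIB-cKO, 0.0598 against NFIX-cKO and -0.22 for the interaction. The replication median by counts was 0.01, and 0.25 with limma on TPM. When a library was left out, mitotic medians ran from 1.32 to 2.40 for NFIB-cKO against WT, from 0.68 to 1.28 for NFIX-cKO against WT, from 0.15 to 0.67 for NFIB/X-dKO against WT, from -1.95 to -0.86 for NFIB/X-dKO against NFIB-cKO, from -0.81 to -0.25 for NFIB/X-dKO against NFIX-cKO (-1.32 to -0.54 by counts), from 0.27 to 1.43 for NFIB-cKO against NFIX-cKO, from 0.34 to 0.96 for NFIB-deleted against NFIB-retaining, and from -2.92 to -1.80 for the interaction. Replication medians ran from 0.36 to 0.52, 0.21 to 0.38, 0.45 to 0.59, 0.07 to 0.18, 0.18 to 0.41 (-0.05 to 0.08 by counts), 0.0404 to 0.24, 0.31 to 0.43 and -0.16 to 0.04 in the same order. Signs reversed for Cenpa in NFIB/X-dKO against WT (0.0327 with series as a term, 0.0661 within animals 32 to 36, and -0.55 to 0.0661 when a library was left out), for Pcna (0.0167 with series as a term in NFIB/X-dKO, and -0.19 to 0.12 with a library left out in NFIB-cKO), for Ube2c in NFIB/X-dKO (-0.0675 to 0.69), for Prim1 in NFIB-cKO (-0.16 to 0.34) and for Anln by counts (-0.79 to 0.0366). The cause of these shifts was not tested. With 2 animals a group, and unknown depth in 3 libraries, moderate differences of single members were near the limit of the test.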
